A study of Sus scrofa with 2 samples.

Results

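Distal intergenic peaks of the transcription factor ZBTB16 that lay within 50 kb of the transcription start site (TSS) of their assigned gene were taken from both peak lists by the authors' annotation class and distance. They numbered 880 of the 10273 peaks of replicate 1 and 507 of the 7301 peaks of replicate 2. The rest of the same annotation class, the distal peaks beyond 50 kb, numbered 348 in replicate 1 and 240 in replicate 2. The libraries were CUT&Tag libraries of wild-type immature spermatogonia from pig testis, with 100000 cells in each, and formed 1 group of 2. Whether separate animals or cultures gave them is not in the labels, so every p-value below compares peaks within a library and not animals. An IgG control was not analysed here, and peaks do not measure expression, so the labelled cell type could not be checked against its markers.

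ZBTB16, also called PLZF, is a BTB domain zinc finger factor that is needed for the maintenance of undifferentiated spermatogonia in mouse. CUT&Tag brings a transposase to a chromatin protein through an antibody, and the fragments it releases pile up where the protein sits. Regulatory elements far from promoters, such as enhancers, can act over long distances and past intervening genes, so the gene assigned to a distal peak is its nearest by TSS and not a measured target. The fold enrichment given for each peak is the authors' value, a linear ratio of fragments at the summit over the peak caller's local background. The deposited values were matched with 1 added to both the fragments and the background. The fold is therefore lower than the plain ratio of the 2 numbers, most of all where the background is low. Sequencing depth was not found in the labels or files, but the fragments at each summit could be recovered from the deposited values, and the lowest background was 1.23 times as high in replicate 1 as in replicate 2. No genome or sequence table was given, so positions on Sscrofa11.1 are printed without sequence.

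The peaks were low and narrow. Against promoter peaks, with median widths of 593 bp in replicate 1 and 527 bp in replicate 2, theirs were 393.5 and 382 bp. The median fold enrichment of the peaks within 50 kb was 4.56 in replicate 1 (quartiles 4.07 and 5.27) and 4.66 in replicate 2 (4.04 and 5.40). The median peak rested on 12 summit fragments in replicate 1 and 11 in replicate 2, and the lowest on 7 and 6, so single peaks carried wide counting error. The single most enriched peak of both libraries was one assigned to DOCK10, a guanine nucleotide exchange factor for small GTPases, at 29.6-fold and 27.6-fold. Distal peaks beyond 50 kb had medians of 4.50-fold and 10 fragments in replicate 1 and 4.51-fold and 8 fragments in replicate 2. Promoter peaks had medians of 5.33-fold and 19 fragments in replicate 1 and 5.25-fold and 16 fragments in replicate 2. The share of peaks at or above the median fold of their whole library was 34.9% within 50 kb and 29.0% beyond it in replicate 1 (difference 5.86 percentage points, odds ratio 1.31, adjusted exact p = 0.0822). All tests here were two-sided, by Fisher's exact method, and adjusted over 16 tests by Benjamini-Hochberg. In replicate 2 it was 37.5% within and 25% beyond (odds ratio 1.80, adjusted exact p = 0.00199). The difference passed the threshold of 0.05 in replicate 2 only, and the libraries were not tested against each other. With strength read as summit fragments in place of fold, it passed in replicate 1 as well (odds ratio 3.24), and with the limit at 25 kb it no longer passed in replicate 2 (odds ratio 1.34).

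The 50 kb limit ran through the spread of the distances. From 40 to 50 kb lay 81 peaks of replicate 1 and 40 of replicate 2, and 348 and 240 distal peaks lay beyond the limit. The median distance was 16.2 kb in replicate 1 and 14.4 kb in replicate 2, against 113 kb and 112 kb for the peaks beyond the limit. Just inside it in replicate 1 lay a peak of PKDCC, a secreted kinase, at 49971 bp (4.02-fold, 13 fragments), and just outside it one of SEMA4F, a semaphorin, at 50047 bp (4.57-fold, 10 fragments). In replicate 2 the DOCK10 peak was the last inside, at 49.95 kb upstream, and a peak of FBXO3, an F-box protein, at 50.04 kb upstream (4.57-fold, 10 fragments) was the first outside. DOCK10 therefore owes its place among these peaks to the limit chosen.

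Most of the peaks lay upstream of their gene. In replicate 1, 591 were upstream and 289 downstream, and in replicate 2, 354 and 153. The upstream share was 67.2% within 50 kb (95% Wilson interval 64.0 to 70.2) and 48.9% beyond it in replicate 1 (odds ratio 2.14, adjusted exact p = 1.53e-08). In replicate 2 it was 69.8% (65.7 to 73.7) within and 50.4% beyond (odds ratio 2.27, adjusted exact p = 1.27e-06). The excess was widest from 5 to 10 kb, where 76.5% of 213 peaks in replicate 1 and 76.7% of 129 in replicate 2 were upstream. The share was lowest from 20 to 30 kb, at 58.1% of 160 in replicate 1 and 63.0% of 92 in replicate 2. From 40 to 50 kb the shares were 61.7% of 81 and 65% of 40. A downstream peak is called distal only past the end of its gene, which leaves less room downstream of long genes. The median assigned transcript was 20.4 kb long for upstream and 5.52 kb for downstream peaks in replicate 1, and 19.2 kb and 5.30 kb in replicate 2. The part of gene length in the upstream share was not tested.

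**Figure D1:**
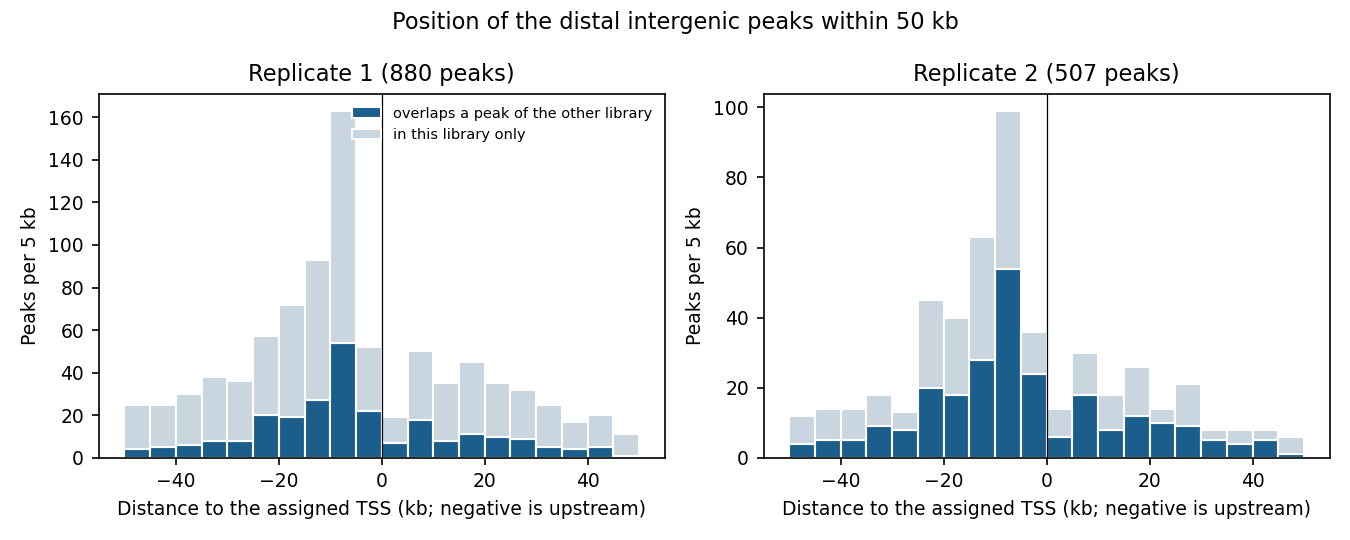
Number of distal intergenic peaks within 50 kb per 5 kb of signed distance to the assigned TSS, with upstream negative, in replicate 1 and replicate 2; dark bars are peaks that overlap a peak of the other library and pale bars the rest. In both libraries the tallest bar stands 5 to 10 kb upstream.

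Upstream and downstream peaks did not differ past the threshold in strength. In replicate 1, 36.7% of upstream and 31.1% of downstream peaks reached the library's median fold (odds ratio 1.28, adjusted exact p = 0.166). In replicate 2 the shares were 35.9% and 41.2% (odds ratio 0.799, adjusted exact p = 0.357), so the libraries leaned opposite ways. Median summit heights were 12 fragments on either side in replicate 1, and 11 upstream and 12 downstream in replicate 2.

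Recurrence, meaning overlap by at least 1 bp with any peak of the other library, was found for 251 of the 880 peaks of replicate 1 (28.5%, interval 25.6 to 31.6) and 253 of the 507 of replicate 2 (49.9%, 45.6 to 54.2). Over all peaks it was 53.2% in replicate 1 and 75% in replicate 2. Against all other peaks of the library, at 55.5% in replicate 1 and 76.8% in replicate 2, the peaks within 50 kb recurred less often (odds ratio 0.319, adjusted exact p = 6.25e-53 in replicate 1 and odds ratio 0.300, adjusted exact p = 1.21e-35 in replicate 2). Among peaks with 10 to 17 summit fragments, a comparison added after seeing the data, this held at 23.7% against 38.1% in replicate 1 and 60.8% against 76.8% in replicate 2. Against distal peaks beyond 50 kb they recurred more often, at 28.5% against 17.2% in replicate 1 (odds ratio 1.92, adjusted exact p = 8.45e-05) and 49.9% against 25% in replicate 2 (odds ratio 2.99, adjusted exact p = 4.80e-10). That second contrast did not hold among peaks with 10 to 17 fragments, where it was 23.7% against 25% in replicate 1 (odds ratio 0.934) and 60.8% against 52.9% in replicate 2 (odds ratio 1.38, past the threshold in neither). Neighbouring peaks are not independent, so the p-values understate the error. Peaks within 50 kb were also narrower than all peaks of their library, with medians of 393.5 against 506 bp in replicate 1. In replicate 2 the medians were 382 against 470 bp. The part of peak width in these contrasts was not tested. The recurrence tests of the 2 libraries count largely the same overlaps from either side, so one does not replicate the other. Of the recurrent peaks, 249 of 251 in replicate 1 and 248 of 253 in replicate 2 overlapped a distal peak within 50 kb.

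Recurrence climbed with the summit. Among peaks within 50 kb in replicate 1 it was 3.23% at 7 to 9 fragments, 14.3% at 10 to 12, 34.5% at 13 to 17, 69.4% at 18 to 30 and 91.4% of the 35 peaks at 31 or more. In replicate 2 it was 17.2% at 6 to 9 fragments, 49.2% at 10 to 12, 73.5% at 13 to 17, 93.2% at 18 to 30 and 100% of the 17 highest. Promoter peaks of like height had 17.5%, 31%, 51.9%, 80.3% and 97.6% in replicate 1 over the same bins. In replicate 2 they had 51.8%, 71.3%, 88.3%, 98.1% and 100%. Distal peaks beyond 50 kb had 3.27% at 7 to 9 fragments, 14.5% at 10 to 12 and 41.4% at 13 to 17 in replicate 1. In replicate 2 they had 9.94% at 6 to 9, 44.9% at 10 to 12 and 71.4% at 13 to 17. Their higher bins held at most 11 peaks. By distance, recurrence was 40.9% under 5 kb and 18.5% between 40 and 50 kb in replicate 1, and 60% and 37.5% at the same distances in replicate 2. The fall was not steady, with 26.5% at 10 to 20 kb and 29.4% at 20 to 30 kb in replicate 1, and 45.3% and 50% in replicate 2. Median summits under 5 kb and at 40 to 50 kb held 15 and 11 fragments in replicate 1, and 14 and 10 in replicate 2. Neither this trend nor the part of summit height in it was tested. Upstream and downstream peaks recurred at 29.3% and 27.0% in replicate 1 (odds ratio 1.12, adjusted exact p = 0.6) and at 49.4% and 51.0% in replicate 2 (odds ratio 0.940, adjusted exact p = 0.824), a difference past the threshold in neither library.

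**Figure D2:**
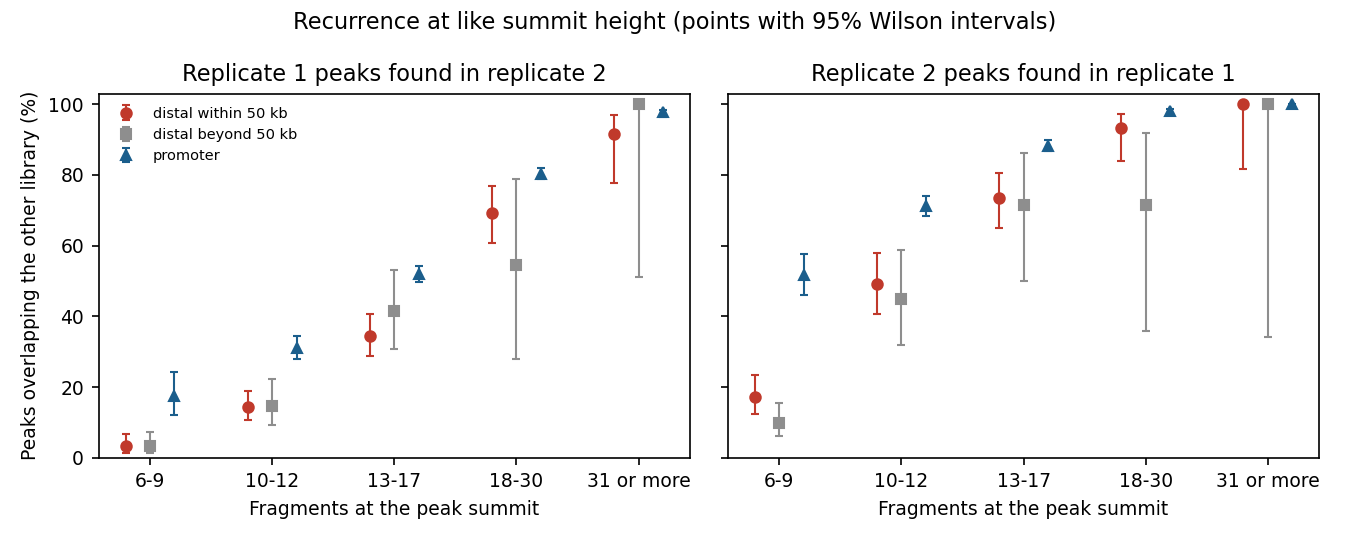
Share of peaks that overlap a peak of the other library, in percent, by the number of fragments at the summit, with 95% Wilson intervals, for distal intergenic peaks within 50 kb, distal peaks beyond 50 kb and promoter peaks. The lowest bin starts at 7 fragments in replicate 1; both distal classes run below promoter peaks at 10 to 12 fragments in both libraries.

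Overlapping peaks of both lists that were distal within 50 kb in both formed 249 regions, 173 upstream and 76 downstream, and 248 of them carried the same gene in both. The others overlapped a peak of another class in the other library, as at ARID1A, a SWI/SNF chromatin remodelling subunit, whose replicate 2 peak 3.33 kb upstream (3.58-fold, 10 fragments) met a replicate 1 promoter peak. The summits lay a median of 105 bp apart, and 123 of the 249 pairs (49.4%) lay within 100 bp. Over the 249 regions the folds of the libraries had a Spearman correlation of 0.540, and the summit fragments one of 0.719. These points share their sites and local background between the libraries, and selection for a peak in both lists narrows their spread. The median ratio of summit fragments, replicate 1 over replicate 2, was 1.27, near the 1.23 of the lowest backgrounds. The fold was at least 7 in both libraries at 16 regions.

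**Figure D3:**
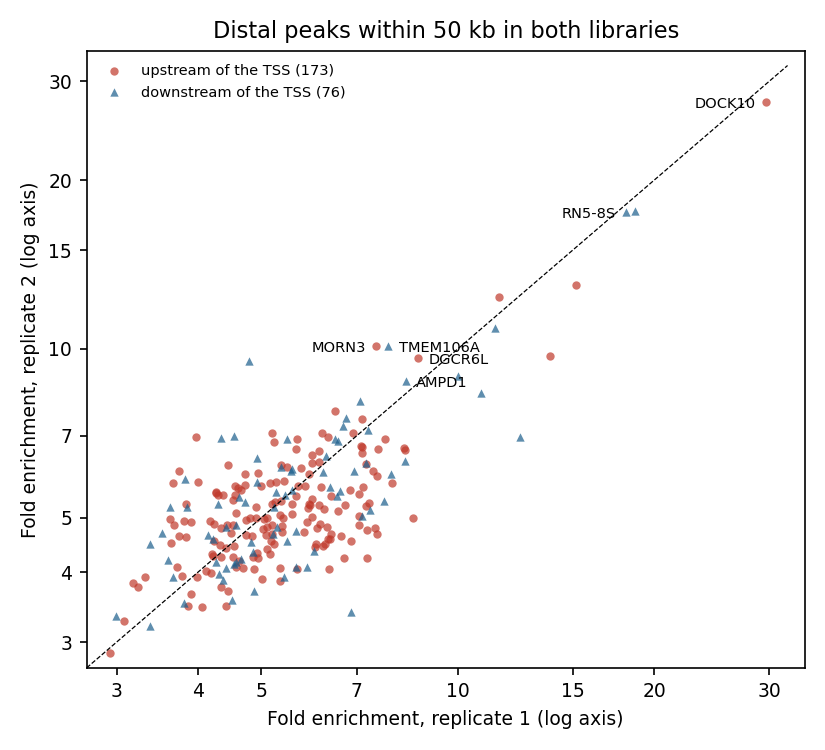
Fold enrichment of the 249 distal regions within 50 kb found in both libraries, replicate 1 on the horizontal and replicate 2 on the vertical log axis, by side of the TSS, with a dashed line of equality. Most points crowd below 7-fold, and DOCK10 stands at the upper right with 29.6-fold and 27.6-fold.

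The strongest upstream region, assigned to DOCK10, lay on chromosome 15 at 126761698 to 126762721. In replicate 1 951 fragments stacked at its summit (Poisson 95% interval 891.5 to 1013), and 657 did so in replicate 2 (607.7 to 709.2). The local background there was 31.1 and 22.9 fragments, against medians of 1.85 and 1.5 over the peaks within 50 kb, and the summits coincided to the base. Next came LOC100737023 on X (13.7 kb upstream, 15.2-fold and 13-fold, 108 and 106 fragments). A pseudogene, LOC100517758, followed on chromosome 4 (26.0 kb, 11.6-fold and 12.4-fold), then a lncRNA, LOC100511891, on chromosome 9 (16.1 kb, 13.8-fold and 9.73-fold).

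Named protein-coding genes made up the rest of the upstream set. DGCR6L, a gene of the DiGeorge critical region in human, had a region 8.76 kb upstream on chromosome 14 (51666130 to 51666593) at 8.70-fold and 9.63-fold, with 23 and 24 fragments, and a promoter peak in both libraries. MORN3, a MORN repeat protein, had one 14.1 kb upstream on the same chromosome (30977363 to 30977806) at 7.50-fold and 10.1-fold, with 23 and 34 fragments, and a promoter peak in replicate 1 only. RGS12, a regulator of G protein signalling, had 7.13-fold and 7.51-fold at 8.17 kb upstream (chromosome 8, 1962528 to 1963218). GNG13, a G protein gamma subunit, had 7.73-fold and 6.90-fold at 4.13 kb upstream (chromosome 3, 40992751 to 40993423). At each of these 4 genes the counting intervals of the summits overlapped between the libraries.

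The 8 strongest downstream regions held fewer named genes. On unplaced scaffolds stood the regions of the lncRNA LOC102160834 (18.7-fold and 17.6-fold, 151 and 125 fragments), the ribosomal RNA gene RN5-8S (18.1-fold and 17.6-fold, 360 and 265 fragments) and the pseudogene LOC110258904 (10.9-fold and 8.35-fold). A pair of neighbouring regions on chromosome 9 (4700034 to 4700599 and 4700942 to 4701221), both assigned to LOC100737110, had the most summit fragments of the peaks within 50 kb, 1602 and 1402 in replicate 1 and 1257 and 1031 in replicate 2. Their local background was also the highest among these peaks, at 139 fragments in replicate 1 and 114 in replicate 2 for the first of the pair, so that the folds were 11.4 and 10.9 there. AMPD1, the muscle AMP deaminase, had a region 25.6 kb past its TSS, 2.37 kb from its body (chromosome 4, 105894540 to 105895338, 8.32-fold and 8.77-fold, 30 and 25 fragments). TMEM106A, a transmembrane protein, had one 40.9 kb downstream (chromosome 12, 19713608 to 19714624, 7.82-fold and 10.1-fold, 19 fragments in each), and the lncRNA LOC110257911 on Y had 7.29-fold and 7.18-fold.

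High local background marked several of these. Above a background of 10 fragments stood 9 of the 880 peaks of replicate 1 (1.02%) and 8 of the 507 of replicate 2 (1.58%), against 0.224% and 0.171% of promoter peaks. All 8 of replicate 2 recurred, and so did 8 of the 9 of replicate 1. Besides DOCK10, RN5-8S and LOC100737110 they included CYB5R1, a cytochrome b5 reductase, at only 2.93-fold and 2.87-fold on 70 and 55 fragments. Without the high-background regions 241 remained, with a Spearman correlation of the folds of 0.501. The part of high background or of unplaced scaffolds in these peaks was not tested.

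The strongest peaks found in replicate 1 only were assigned to the lncRNA LOC110257827 on X (10.5-fold, 25 fragments), TMSB15B, a beta thymosin on X (8.16-fold, 17 fragments), and LOC110257929 on Y (8.16-fold, 17 fragments). The strongest in replicate 2 only were those of YBX3, a Y-box protein that binds RNA and DNA (6.65-fold, 14 fragments), GRB2, the adaptor that links receptor tyrosine kinases to RAS (6.40-fold, 15 fragments), and P2RY2, a purinergic receptor (6.35-fold, 16 fragments). By medians, peaks of 1 library only had 4.42-fold on 11 fragments in replicate 1 and 4.35-fold on 9 in replicate 2, and recurrent peaks 5.27-fold on 17 and 5.06-fold on 14.

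The peaks within 50 kb were assigned to 832 genes in replicate 1 and 483 in replicate 2, of which 251 were the same (30.2% and 52.0% of the lists). Of these 251 genes, 239 had overlapping peaks and 12 had peaks at different places. Protein-coding genes took 67.5% of the peaks of replicate 1 and 70.6% of replicate 2, lncRNAs 22.6% and 17.8%, and pseudogenes 6.25% and 7.50%. Beyond 50 kb the protein-coding share was 50.9% and 52.5%, and the lncRNA share 35.9% and 32.9%; this difference was not tested. Genes known only by a LOC number took 37.2% and 36.1% of the peaks. Nearly all genes had 1 peak (790 of 832 and 461 of 483).

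A minority of the assigned genes also had a promoter peak. Among the 561 protein-coding genes of replicate 1, 177 (31.6%) had one in the same library, against 27.4% of all 20642 protein-coding genes in the RefSeq table. In replicate 2 it was 63 of 342 (18.4%), against 20.8%. The shares stood close to the background, above it in replicate 1 and below it in replicate 2. Of the 176 protein-coding genes with a distal peak in both libraries, 34 (19.3%) had a promoter peak in both and 118 in neither. The matching shares over all protein-coding genes were not counted, so nothing is read from these numbers.

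The assigned gene was not always the nearest. For 79.2% of the 846 placed peaks of replicate 1 and 79.2% of the 480 of replicate 2 the closest gene body in the RefSeq table was that of the assigned gene. Among the 232 placed regions of both libraries it was another gene at 45. Within 1 kb of either end of a gene lay 18 peaks in replicate 1 (2.13%) and 16 in replicate 2 (3.33%), against 1 distal peak beyond 50 kb in each library (0.292% and 0.424%, adjusted exact p = 0.036 and 0.0329). The distance limit itself brings peaks nearer to genes, so nothing is read from this. Such peaks recurred at 38.9% against 27.3% of the other peaks within 50 kb in replicate 1 (adjusted exact p = 0.357) and 50% against 49.1% in replicate 2 (adjusted exact p = 1). The recurrent regions among them included one 378 bp from the end of SFN, the 14-3-3 sigma protein (6.59-fold and 5.58-fold), and one 304 bp from ADIRF, an adipogenesis regulatory factor (6.53-fold and 5.47-fold). They also included one 726 bp from CTDSP1, a small phosphatase, that was assigned to VIL1, the microvillus protein villin (3.64-fold and 4.51-fold), and one 832 bp from ALDH8A1, an aldehyde dehydrogenase, that was assigned to the pseudogene LOC110260030 (5.56-fold and 5.61-fold).

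Several genes had more than 1 peak. FXYD4, a regulator of the sodium pump, had 4 in replicate 1, of which the one 3.36 kb upstream recurred as its single peak in replicate 2 (5.10-fold and 4.40-fold). IER3, an immediate early gene, had 3 upstream peaks in replicate 1, and the one 10.2 kb upstream recurred as its single peak in replicate 2 (5.65-fold and 5.47-fold). The lncRNA LOC110256295 had 3 and 2, and LOC100156231 had 2 recurrent downstream peaks in each.

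Peaks near miRNA genes, chosen for description after their values were seen, numbered 18 in replicate 1, 11 of them upstream, and 13 in replicate 2, 9 of them upstream. They were 2.05% of the peaks within 50 kb in replicate 1 and 2.56% in replicate 2, against 0.208% and 0.193% of promoter peaks. In replicate 2 the share beyond 50 kb was 1.25%. The share over all miRNA genes was not counted, and neither the number nor the side of these peaks was tested. The TSS of a miRNA gene in this annotation lies at the short annotated gene, while the primary transcript of a miRNA usually starts farther upstream. A region of both libraries stood at 8 miRNAs, upstream at all 8, where 69.5% of all 249 recurrent regions were upstream. MIR30D had one 27.8 kb upstream (chromosome 4, 6920424 to 6920859) at 6.24-fold and 5.18-fold on 22 and 15 fragments. MIRLET7A-2, of the let-7 family that is known for restraining proliferation, had one 9.43 kb upstream at 5.04-fold and 4.97-fold on 27 and 21 fragments. MIR21, a widely expressed miRNA, had one 3.25 kb upstream at 4.81-fold and 4.99-fold on 18 and 14 fragments. The regions of MIR183, MIR9-3, MIR9788-1, MIR181C and MIR9815 ran from 3.83-fold to 4.32-fold in replicate 1 and from 3.49-fold to 5.79-fold in replicate 2. Peaks of MIR155 (4.39-fold, 9 fragments) and MIRLET7I (4.45-fold, 12 fragments) were called in replicate 1 only, at heights where most peaks did not recur.

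By gene lists for the testis and its pathways, 32 of 534 listed genes had a distal peak within 50 kb in replicate 1, 23 in replicate 2 and 13 in both. Over all protein-coding genes the shares were 2.72% in replicate 1, 1.66% in replicate 2 and 0.853% in both. The listed shares, 5.99%, 4.31% and 2.43%, were above these, but the genes known by LOC numbers are in the background and in no list. The lists were written with earlier results of these data known and no list was tested, so nothing is called particular to one. Markers of undifferentiated spermatogonia, the cells that depend on ZBTB16, had distal peaks within 50 kb at 2 of 31 genes in replicate 1, none in replicate 2. Peaks of other classes at these markers are not counted here. The genes with such a distal peak were RET, the receptor of the niche factor GDNF (15.1 kb upstream, 4.42-fold, 10 fragments), and ID4, a factor of the most stem-like spermatogonia in mouse (26.6 kb upstream, 4.81-fold, 14 fragments). ID4 also had a promoter peak in replicate 1. Of all replicate 1 peaks within 50 kb, 14.3% recurred at the height of the RET peak (10 to 12 fragments) and 34.5% at that of the ID4 peak (13 to 17), so the lack of a replicate 2 peak at either does not show a difference.

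Of signalling genes, DUSP4, a phosphatase that turns off MAP kinases, had the clearest case. Its region 18.2 kb upstream on chromosome 15 (55472368 to 55472862) had 5.20-fold in replicate 1 and 5.29-fold in replicate 2 on 21 and 17 fragments. Replicate 2 held 2 further distal DUSP4 peaks, at 4.04-fold and 3.46-fold. DUSP4 also had a promoter peak in replicate 1 (2.97-fold, 15 fragments) and none in replicate 2. DUSP4 was the member of the GDNF, FGF and MAPK list (3 of 34 in each library) and of the list from mouse work on ZBTB16 (1 of 18 in each) with peaks in both. The other members of the GDNF list were RET and SOS1, a RAS exchange factor, in replicate 1, and GRB2 and FGFR2, a receptor of FGFs, in replicate 2. ID1, a target of BMP signalling that blocks basic helix-loop-helix factors, was the TGF-beta and BMP gene found in both (5 of 38 and 3 of 38 had a peak). Its region lay 24.2 kb upstream (chromosome 17, 35291771 to 35292281) at 4.44-fold and 6.20-fold on 15 and 20 fragments, but 3.34 kb from the body of HM13, a signal peptide peptidase. The WNT list had 1 of 39 in each library, WNT6, a ligand, in replicate 1 and APC, a negative regulator of the pathway, in replicate 2. The retinoic acid list had 1 of 18 in replicate 1, the receptor RXRG (6.32-fold, 16 fragments), and none in replicate 2. Beside these counts, 2.72% of all protein-coding genes had a peak in replicate 1 and 1.66% in replicate 2.

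Chromatin regulators had a peak at 4 of 58 genes in replicate 1 (6.90%) and 7 of 58 in replicate 2 (12.1%), with 3 in both. Over all protein-coding genes it was 2.72% and 1.66%, and the list was not tested. NSD1, a histone H3 lysine methyltransferase, had a region 14.4 kb upstream (chromosome 2, 80825355 to 80825832) at 5.56-fold and 5.28-fold on 18 and 14 fragments, and promoter peaks in both libraries. ARID1B, a SWI/SNF subunit, had one 5.43 kb upstream (chromosome 1, 10232816 to 10233303) at 4.17-fold and 4.93-fold on 12 fragments in each. DNMT3A, the de novo DNA methyltransferase, counted in both libraries by peaks at different places, 9.89 kb upstream in replicate 1 (5.38-fold) and 30.0 kb downstream in replicate 2 (5.02-fold). It was also the gene behind the 1 of 13 differentiating spermatogonia markers in each library. In replicate 2 alone stood CBX8, a Polycomb subunit (5.94-fold, 17 fragments), TET1, a methylcytosine oxidase (4.09-fold, 9 fragments), and EZH2, the H3K27 methyltransferase (4.09-fold, 8 fragments). The EZH2 peak lay nearer to the body of LOC110255506. In replicate 1 alone stood CHD4, a remodelling ATPase of the NuRD complex (3.93-fold, 25 fragments). EZH2 in replicate 2 and CHD4 in replicate 1 also had a promoter peak in the same library. Of the replicate 2 peaks within 50 kb, 17.2% recurred at 6 to 9 fragments and 73.5% at 13 to 17. Of those of replicate 1, 69.4% recurred at 18 to 30. A difference between the libraries at these genes was not tested.

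Meiosis genes had a peak at 3 of 23 in replicate 1 and 2 of 23 in replicate 2. Over all protein-coding genes the shares were 2.72% in replicate 1 and 1.66% in replicate 2. The meiosis, spermatid and germline counts rest on few genes, and none of these lists was tested. MEIOC, which sustains meiotic prophase in mouse, had a region 8.78 kb upstream (chromosome 12, 18672009 to 18672391) at 5.92-fold and 5.98-fold on 20 and 15 fragments. SYCE1, a central element protein of the synaptonemal complex, had one 7.10 kb upstream at 4.53-fold and 4.85-fold on 9 fragments in each, with the body of LOC100514924 nearer. TEX15, a meiotic and piRNA pathway factor, had a peak in replicate 1 only (4.86-fold). TSSK3, a testis-specific serine kinase of spermatids, was 1 of 24 spermatid genes in each library, at 6.83-fold and 5.60-fold on 34 and 23 fragments 9.64 kb upstream, nearer to FAM229A. PIWIL2, a piRNA-binding Argonaute, was the 1 of 20 germline genes in replicate 1 (3.62-fold, 7 fragments), with none in replicate 2.

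Cell cycle genes had 2 of 39 in each library (5.13%), the same genes in both. All protein-coding genes had 2.72% in replicate 1 and 1.66% in replicate 2. MCM2, of the replicative helicase, had a region 4.62 kb upstream (chromosome 13, 72655892 to 72656164) at 4.19-fold and 4.31-fold on 18 fragments in each. CCNA2, cyclin A2, had one 46.5 kb upstream (chromosome 8, 102213316 to 102213807) at 5.98-fold and 5.01-fold on 20 and 17 fragments, with another gene body nearer. CCNA2 also had a promoter peak in replicate 1 (4.55-fold, 17 fragments) and none in replicate 2. Ribosomal protein genes had 5 of 75 in replicate 1 (6.67%) and 1 of 75 in replicate 2 (1.33%). Developmental transcription factors had 4 of 81 (4.94%) and 1 of 81 (1.24%). TFAP2A, an AP-2 factor of early germ cells and neural crest, was found in both, 30.2 kb downstream (chromosome 7, 7205890 to 7206386), at 5.55-fold and 6.07-fold on 12 and 11 fragments.

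Among lists for the other cells of the testis, Leydig and peritubular genes had 2 of 18 in replicate 1 (11.11%) and 1 of 18 in replicate 2 (5.56%), against the 2.72% and 1.66% over all protein-coding genes. CYP11A1, the first enzyme of steroid synthesis, had a region 23.5 kb upstream (chromosome 7, 59148836 to 59149342) in both, at 4.34-fold and 4.80-fold on 15 and 14 fragments. PDGFRB, a receptor of mesenchymal cells, had a peak in replicate 1 only. Sertoli cell genes had none in replicate 1 and 1 of 20 in replicate 2, the activin subunit INHBB, and endothelial and leukocyte genes none in replicate 1 and 1 of 15 in replicate 2, the macrophage receptor CD163 (3.54-fold, 6 fragments).

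**Figure D4:**
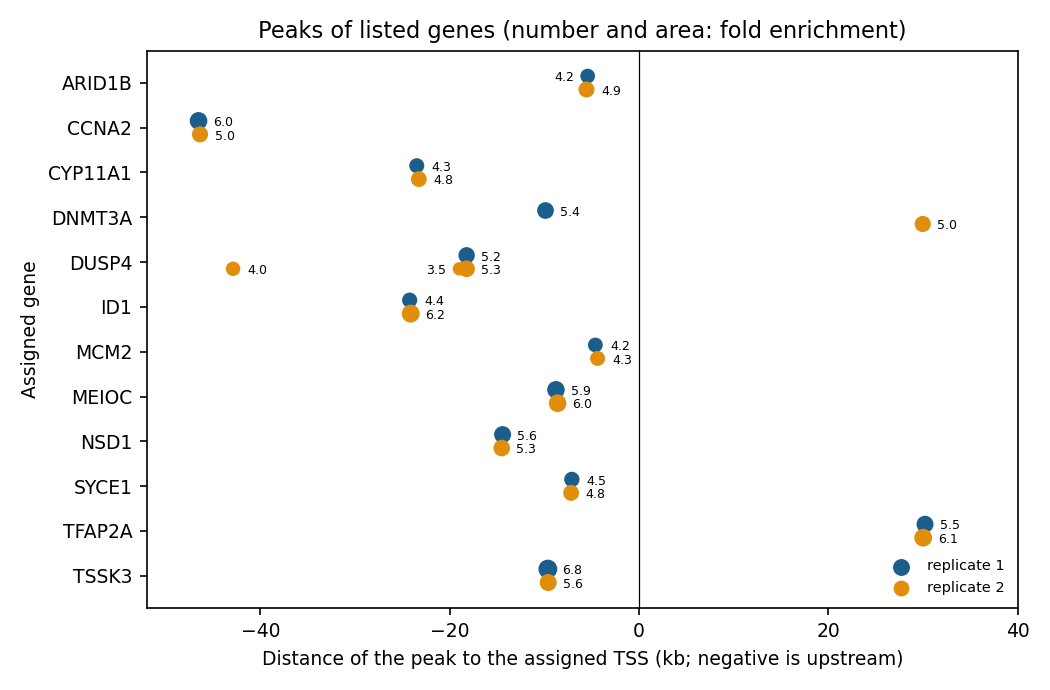
Signed distance in kb from the assigned TSS, with upstream negative, of the distal intergenic peaks within 50 kb of 12 of the 13 listed genes that had one in both libraries, with fold enrichment as number and symbol area, by library. At 11 genes the libraries mark the same place, and at DNMT3A opposite sides of the gene.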

How the data were processed

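ZBTB16 CUT&Tag peak lists of 2 libraries were used. The build was Sscrofa11.1 (submitters' processing notes), with aligner, peak caller and annotation tool not given in the sources used here. Per the file headers, each deposited peak, called per library, carries a fold enrichment (a linear ratio), a −log10 p-value, a −log10 q-value, a score (not used) and its assigned gene, class and distance. Summit fragments and background were recovered from fold (with 1 added to both of them) and −log10 p-value, exact within 1e-05 for 100% of peaks. Chromosomes numbered after 18 in the files are X and Y by the gene table. Recurrence was overlap by at least 1 bp, checked with bedtools 2.31.1. Shares were compared by two-sided Fisher's exact tests (scipy 1.17.1) with Benjamini-Hochberg adjustment over 16 tests at 0.05, tested on simulated data. Wilson and Poisson 95% intervals cover counting error only. The RefSeq table of Sscrofa11.1 holds no strand, so a planned test at gene starts used either gene end, within 1 kb. Named are the 8 strongest recurrent peaks of each side (by the lower within-library rank of fold), the 3 strongest of each library alone, those at the limit, up to 6 genes with the most peaks, listed genes with peaks in both libraries, and recurrent peaks at gene ends. A few of these are not reported here. Other genes were named after their values were seen. Members and the 17 lists were chosen with earlier results of these data known. Alternatives were a 25 kb limit, fold of at least 4, reciprocal overlap of 50%, equal list lengths, distal overlaps only, numbered chromosomes only, summit fragments as strength, gene ends within 3 kb, each library alone and, added after seeing the data, 10 to 17 fragments and background up to 10. Python 3.11.15, numpy 2.4.6, pandas 2.3.3 and matplotlib 3.10.9 were used.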

Additional observations from a re-analysis of the deposited data

How the results depend on the processing

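Values here are odds ratios. Of 110 alternatives to the 16 comparisons, 92 kept direction and side of the threshold, 6 no longer passed, 2 newly passed and 10 turned direction. Among peaks of 10 to 17 fragments, recurrence within against beyond 50 kb was 0.934 in replicate 1 and 1.38 in replicate 2, and upstream against downstream 1.18 in replicate 2. When only distal peaks counted as overlap, recurrence against all other peaks was 56.6 in replicate 1 and 104 in replicate 2, by construction, since the other peaks are mostly not distal. Recurrence upstream against downstream was 0.944 with reciprocal overlap in replicate 1 and 1.04 on numbered chromosomes in replicate 2. Strength within against beyond 50 kb was 3.24 by summit fragments in replicate 1 and 1.34 at 25 kb in replicate 2. Leaving out a library leaves the other one's own value, 1.80 without replicate 1 and 1.31 without replicate 2, and for strength by side 0.799 and 1.28, and it leaves no recurrence. Peaks at gene ends against those beyond 50 kb gave 4.50 in replicate 1 and 5.87 in replicate 2 at a fold of at least 4, and 7.05 in replicate 1 with low background, no longer past the threshold. The distance limit itself brings peaks nearer to genes, so nothing is read from this contrast in any setting. Recurrence at gene ends in replicate 2 was 0.637 with distal overlaps only and 0.737 with equal lengths. The causes were not tested. No paired analysis was possible because there was 1 group. Low counts limit the precision of single peaks, whose median summit held 12 fragments in replicate 1 and 11 in replicate 2.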

Other observations

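The recurrent region of FOS, an immediate early AP-1 gene, was chosen after its values were seen. It lay 18.6 kb upstream on chromosome 7 (98430208 to 98430884) and had 7.42-fold in replicate 1 and 6.07-fold in replicate 2, on 37 and 26 summit fragments. The peaks within 50 kb on unplaced scaffolds numbered 34 of 880 in replicate 1 (3.86%, against 1.51% of all peaks) and 27 of 507 in replicate 2 (5.33%, against 1.53%), and 17 of the 249 recurrent regions lay there. A peak in replicate 2 stood 85 bp past the annotated TSS of MIR219A (3.72-fold, 15 fragments). It began past the end of that short gene.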
